A study of Mus musculus with 6 samples.

Results

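The mitochondrial ribosomal protein genes of the mouse carry the symbols Mrpl and Mrps followed by a number, and their RNA was compared between antiviral CD4+ T cells with high and with low surface CD25. Members were taken by symbol, as the rows of the count table whose Ensembl identifier is a protein-coding Mrpl or Mrps gene in GENCODE release M21. No measured value entered that rule, but the family was chosen with earlier results of these data known. The table of 15445 genes held 77 of the 78 annotated members (48 Mrpl and 29 Mrps). Mrpl33 was not analysed here. The cells were monoclonal transgenic CD4+ T cells, sorted by CD4, Thy1.1 (a congenic marker) and CD25 from spleens of C57BL/6 mice on day 5 of an infection with lymphocytic choriomeningitis virus, LCMV. There were 3 libraries of CD25-high cells and 3 of CD25-low cells, and all 6 shared the transgenic receptor, the strain, the infection and the day. Every cell of a library carries the receptor of 1 transgenic line, the age of the animals is not given in the sources used here, and no label ties a library to its own animal. The p-values therefore reflect only how far these libraries spread, which may be technical.

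The mitochondrial ribosome, or mitoribosome, translates the few mRNAs that the mitochondrial genome encodes, all of which are for membrane subunits of the respiratory chain and of ATP synthase. Its rRNAs come from the mitochondrial genome, while its proteins are encoded in the nucleus, made in the cytosol and imported. Some of these proteins descend from those of bacterial ribosomes, and others are specific to mitochondria. T cells enlarge their mitochondria and raise mitochondrial protein synthesis after activation, and CD25 is the alpha chain of the high-affinity receptor for interleukin-2, a cytokine that drives growth and metabolism in activated T cells.

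By place in the mammalian mitoribosome, 50 members belong to the large subunit and 26 to the small one. Mrps18a and Mrps30 sit in the large subunit despite their names. Mrps36 lies outside the ribosome and is a component of the 2-oxoglutarate dehydrogenase complex. A bacterial counterpart was assigned to 43 members, and the other 34 were classed as specific to mitochondria. Mrps18a and Mrps18b were put in the second class although both are related to bacterial S18, and the related Mrps18c was put in the first. The genes lie on 17 chromosomes.

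The promoter windows of the members, which the choice by symbol did not use, were searched for short letter strings. RefSeq windows from 250 bases before to 50 bases after the transcription start (assembly GRCm38.p6) were matched to 68 members, with 74 windows in all. Mrpl36, Mrpl37, Mrpl42 and Mrps18b are printed because their CD25-high and CD25-low libraries did not overlap and their windows hold at least 1 of the strings marked. The window of Mrps11 is printed because it also covers the start of Mrpl46. Capitals mark, on either strand, the ETS core (CCGGAAG), the NRF1 core (GCGCATGC), the YY1 core (AAGATGGC) and the E-box (CACGTG). The regions are chr13:73330759-73331058 on the plus strand for Mrpl36, chr4:107066817-107067116 on the minus strand for Mrpl37, chr10:95501900-95502199 on the minus strand for Mrpl42, chr17:35916391-35916690 on the minus strand for Mrps18b and chr7:78782881-78783180 on the plus strand for Mrps11. Each is written 5′ to 3′ on the strand of its gene. For Mrpl36 the RefSeq start lies inside the GENCODE gene, whose first base is used for its neighbours below. For Mrps18b the whole window lies upstream of the GENCODE gene (chr17:35910379-35916389).
Mrpl36: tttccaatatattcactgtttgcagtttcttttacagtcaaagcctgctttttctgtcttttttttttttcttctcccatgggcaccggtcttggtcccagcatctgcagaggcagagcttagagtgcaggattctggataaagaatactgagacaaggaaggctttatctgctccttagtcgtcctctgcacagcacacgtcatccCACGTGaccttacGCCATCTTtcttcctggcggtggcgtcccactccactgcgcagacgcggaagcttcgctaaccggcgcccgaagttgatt
Mrpl37: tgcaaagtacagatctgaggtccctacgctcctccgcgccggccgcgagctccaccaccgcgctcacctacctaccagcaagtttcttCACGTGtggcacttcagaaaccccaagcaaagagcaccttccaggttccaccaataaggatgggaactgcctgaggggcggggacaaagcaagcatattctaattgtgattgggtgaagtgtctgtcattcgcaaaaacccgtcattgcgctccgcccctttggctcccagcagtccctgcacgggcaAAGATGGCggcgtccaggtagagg
Mrpl42: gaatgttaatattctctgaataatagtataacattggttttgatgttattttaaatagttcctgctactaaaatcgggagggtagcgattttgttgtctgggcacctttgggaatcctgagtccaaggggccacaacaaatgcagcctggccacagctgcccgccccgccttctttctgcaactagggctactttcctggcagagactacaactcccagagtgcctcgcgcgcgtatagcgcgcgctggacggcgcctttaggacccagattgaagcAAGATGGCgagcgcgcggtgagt
Mrps18b: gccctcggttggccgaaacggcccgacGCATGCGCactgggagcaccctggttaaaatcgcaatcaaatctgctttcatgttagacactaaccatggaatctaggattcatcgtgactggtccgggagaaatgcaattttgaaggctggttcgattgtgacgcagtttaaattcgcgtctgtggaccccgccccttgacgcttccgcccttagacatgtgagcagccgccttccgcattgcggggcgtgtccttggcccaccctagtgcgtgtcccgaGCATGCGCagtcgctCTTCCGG
Mrps11: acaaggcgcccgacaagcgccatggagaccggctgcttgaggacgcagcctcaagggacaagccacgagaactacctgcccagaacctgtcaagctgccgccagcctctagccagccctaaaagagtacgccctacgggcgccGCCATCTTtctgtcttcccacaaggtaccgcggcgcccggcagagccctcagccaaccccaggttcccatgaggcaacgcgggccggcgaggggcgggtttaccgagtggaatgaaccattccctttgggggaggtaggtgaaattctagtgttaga

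Relative to the RefSeq start, Mrpl37 and Mrpl42 hold the YY1 letters just after it, and Mrpl36 and Mrps11 hold them before it in the reverse direction. Mrps18b holds the NRF1 letters on both sides of the RefSeq start and the ETS letters after it. By the GENCODE start of Mrps18b, all of its marked letters lie before the start. Searched on both strands, the YY1 core occurred in 12 of 74 member windows (16.2%), against 4.7% of the windows of the other tested protein-coding genes and 2.7% of all 32851 windows. It lay after the start in 8 of those 12 windows (66.7%), against 279 of 515 windows (54.2%) of the other tested genes. The ETS core occurred in 33.8% of member windows, against 18.9% of windows of the other tested genes and 8.9% of all windows, and the NRF1 core in 9.5%, against 5.6% and 2.7%. The CCAAT box (CCAAT, 39.2% against 38.1% of other tested genes and 37.4% of all) and the E-box (9.5% against 10.1% and 7.2%) were about as frequent as elsewhere. The GC box of SP1 (GGGCGG) occurred in 52.7% of member windows, against 62.8% of the windows of other tested genes and 35.7% of all windows. These are shares of windows and not of genes, because 3 members had more than 1 window and each window was counted. The overlapping windows of Mrpl2 all hold the CCAAT box, the E-box and the GC box. None of the strings contains another. A match describes the letters of the window and does not show that a factor was bound in these cells.

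The members also lie close to other genes. A gene on the opposite strand started within 1000 bases, facing away from the member or overlapping its first bases, for 33 of the 77 members (42.9%), against 1929 of 10872 tested protein-coding genes (17.7%). One such pair is made of 2 members: Mrps11 (chr7:78783119-78792989, plus strand) and Mrpl46 (chr7:78775236-78783531, minus strand). Their RefSeq starts lie 42 bases apart and their windows share 141 bases, chr7:78783040-78783180. In 30 distinct pairs both genes were tested, and the log2 fold changes had the same sign in 18 of them. No such share was taken for the neighbours of other genes. None of the partners was called in the comparison of CD25-high with CD25-low cells, beside 0.655% of all tested genes. With the library number as a block 1 was called, beside 4.63% of all tested genes. It was Wdfy1, the neighbour of Mrpl44 (log2 fold change -0.94, edgeR adjusted p = 0.0273).

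**Figure D1:**
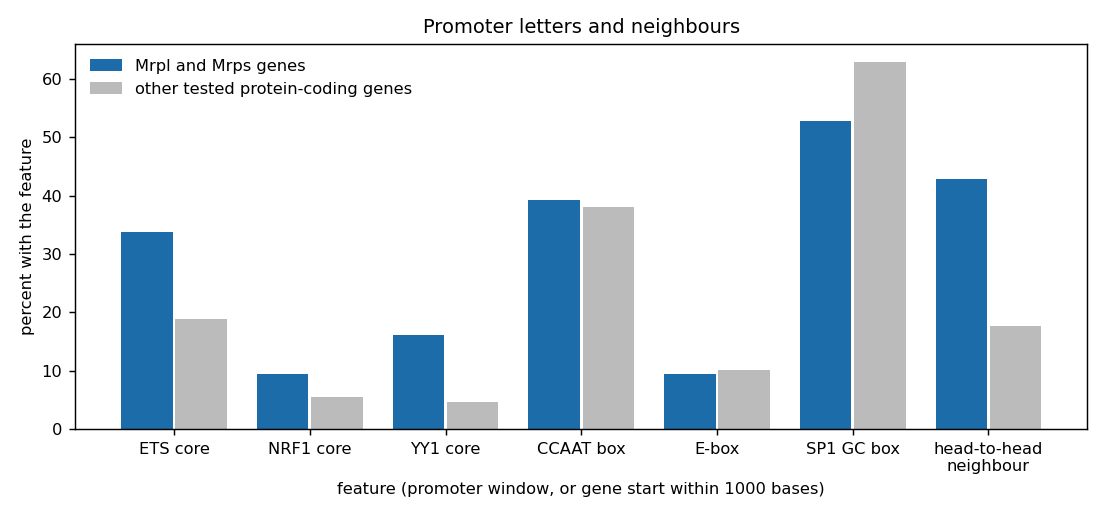
Percent of promoter windows holding each letter string on either strand (6 bar pairs at left), and percent of genes with a gene start on the opposite strand within 1000 bases (right), for the Mrpl and Mrps genes (blue) and for the other tested protein-coding genes (grey; for the neighbours, all tested protein-coding genes). The ETS core (33.8% against 18.9%), the YY1 core (16.2% against 4.7%) and head-to-head neighbours (42.9% against 17.7%) were more frequent among the members, and the SP1 GC box was less frequent (52.7% against 62.8%).

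Total counts ranged from 16787233 to 18847288 in the CD25-high libraries and from 18810599 to 23567066 in the CD25-low libraries. Levels are given as CPM, the count scaled to the depth of the library, and values per library are in the order 1, 2, 3 throughout. Il2ra, the gene of CD25, had 1536, 432 and 666 CPM in CD25-high cells, against 20.7, 29.4 and 35.7 CPM in CD25-low cells (log2 fold change 4.94 ± 0.47, SE, edgeR adjusted p = 0.00173). All 8 T cell markers examined (Cd3d, Cd3e, Cd3g, Cd4, Cd28, Lck, Thy1 and Trac) were detected in every library, while of 8 myeloid markers Lyz2, Fcgr3 and S100a9 stayed at or below 0.724 CPM. Of the same list, Itgam had 21.1, 77.2 and 71.6 CPM in CD25-high cells, against 5.03, 26.3 and 32.1 CPM in CD25-low cells, and Csf1r had 2.89, 2.34 and 1.52 CPM in CD25-high cells, against 2.08, 0.639 and 1.57 CPM in CD25-low cells. Neither was called by edgeR without a block (log2 fold changes 1.42 and 0.66, adjusted p = 0.433 and 0.780), and Itgam was called with the library number as a block (adjusted p = 0.00130). Library 1 of each group stood apart from the other 2 in Thy1, with 97.8, 270 and 274 CPM in CD25-high cells and 54.0, 206 and 207 CPM in CD25-low cells. The part of these differences in the results was not tested. In bulk RNA, fewer cells of a type and less RNA per cell cannot be told apart.

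Among the mitochondrial ribosomal protein genes, no difference between CD25-high and CD25-low cells passed the main test, which had group as its only term. With the library number as a block, described below, 1 member (Mrpl38) was called. Counts of 76 members were high enough to be tested, and edgeR's quasi-likelihood test called 0 of them at an adjusted p under 0.05, against 85 of 12987 genes (0.655%) in the whole table. The lowest adjusted p was 0.412, for Mrpl36. DESeq2 and limma voom also called 0 members. At an unadjusted p under 0.05 edgeR passed 3 members (Mrpl36, Mrpl38 and Mrps18b), beside 11.1% of all tested genes. The log2 fold changes, CD25-high over CD25-low, lay between -0.65 and 1.43 with a median of 0.09, beside a median of 0.01 over all tested genes. They were positive for 52 members and negative for 24, which is 68.4% positive beside 50.8% over all tested genes. A p that misses the threshold does not show that the groups were alike, so the intervals matter. The 95% interval stayed within a 2-fold change in either direction for 44 members (57.9%), beside 37.5% of all tested genes and 38.0% of genes in the same range of mean CPM. For 23 members it reached a 2-fold higher level in CD25-high cells, and for 10 members a 2-fold lower one.

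**Figure D2:**
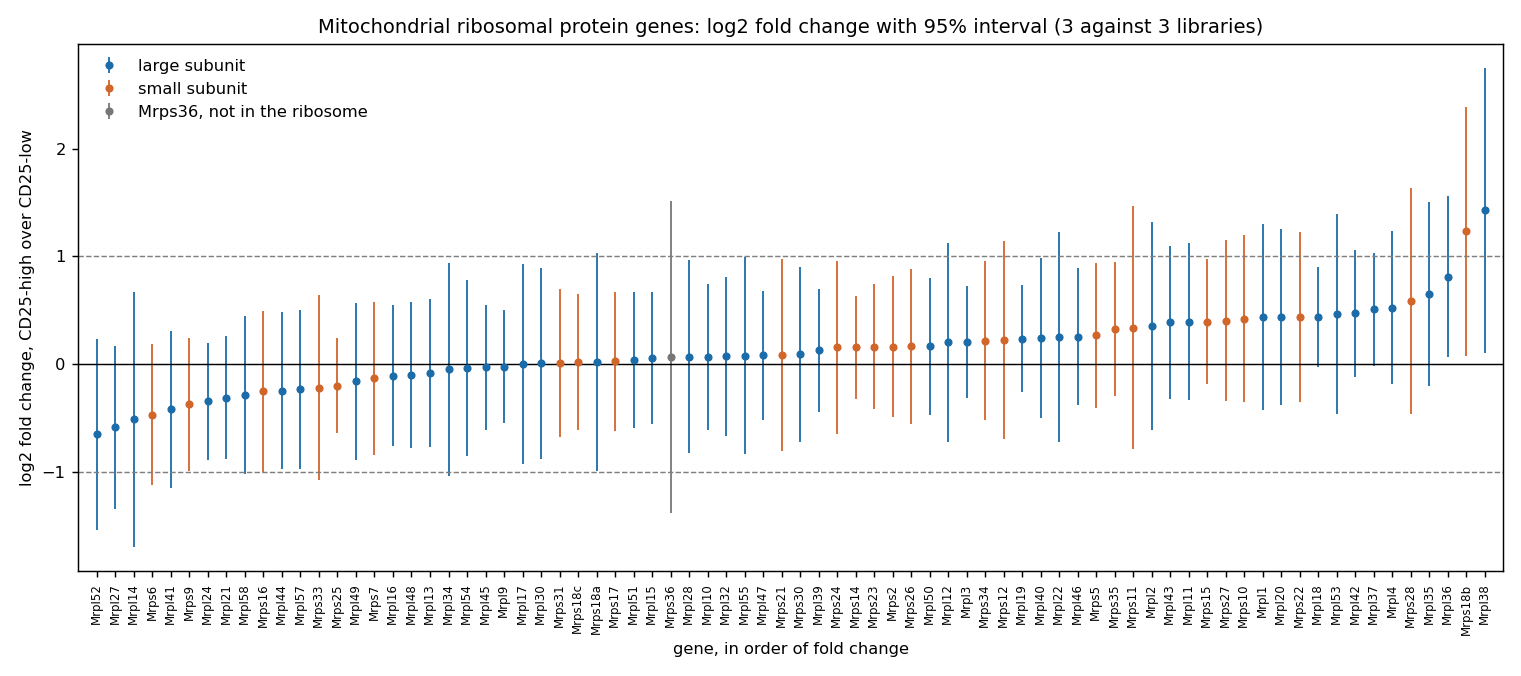
Log2 fold change of each of the 76 tested members, CD25-high over CD25-low (points, vertical axis), with its 95% interval from edgeR's quasi-likelihood fit to 3 against 3 libraries (bars), in order of fold change. Blue marks the large subunit, orange the small subunit and grey Mrps36, and dashed lines mark a 2-fold change. Estimates run from -0.65 for Mrpl52 to 1.43 for Mrpl38, and the intervals of 44 genes lie between the dashed lines.

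Neither subunit held a called gene in the main test. The 49 tested large-subunit genes had a median log2 fold change of 0.07 (31 positive, 18 negative) and the 26 small-subunit genes one of 0.16 (20 positive, 6 negative). Members with a bacterial counterpart had a median of 0.12 (29 positive, 13 negative), and those specific to mitochondria had a median of 0.09 (23 positive, 11 negative). The ratio of summed large-subunit to summed small-subunit CPM was 2.52, 2.10 and 2.20 in CD25-high cells, against 2.34, 2.05 and 2.05 in CD25-low cells. This ratio was highest in library 1 of each group, and the groups overlapped.

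The members with the smallest p among those with positive estimates were 5 large-subunit genes and 1 small-subunit gene. Mrpl36 (chr13:73328513-73332178), a small protein of the large subunit with a bacterial counterpart, had 73.7, 41.7 and 36.5 CPM in CD25-high cells, against 36.0, 18.3 and 32.3 CPM in CD25-low cells. Every CD25-high library was above every CD25-low library, by a narrow margin between the lowest of the first and the highest of the second. The CD25-high mean was 50.6 ± 20.2 CPM and the CD25-low mean 28.9 ± 9.37 CPM (SD, n = 3 each), and the log2 fold change of 0.81 ± 0.34 (SE) had an edgeR adjusted p of 0.412. Without CD25-high library 1 the estimate was 0.44.

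Mrpl38 (chr11:116131817-116138868), a mitochondria-specific protein of the central protuberance of the large subunit, had the largest estimate. It had 18.6, 7.56 and 7.67 CPM in CD25-high cells, against 8.09, 1.92 and 2.61 CPM in CD25-low cells. Within each same-numbered pair the CD25-high library was higher, but the groups overlapped, because CD25-low library 1 lay just above CD25-high libraries 2 and 3. The CD25-high mean was 11.3 ± 6.34 CPM and the CD25-low mean 4.21 ± 3.39 CPM (SD, n = 3 each). The log2 fold change was 1.43 ± 0.60 (edgeR adjusted p = 0.412). It was 0.86 without CD25-high library 1 and 2.31 without CD25-low library 1.

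Mrps18b (chr17:35910379-35916389), which encodes 1 of the 3 proteins related to bacterial S18 and belongs to the small subunit, had 6.35, 3.99 and 2.71 CPM in CD25-high cells, against 1.59, 1.83 and 2.11 CPM in CD25-low cells. The groups did not overlap (log2 fold change 1.24 ± 0.52, edgeR adjusted p = 0.419). Mrps18b shares 30.5% of its exonic bases with Gm16279 on the other strand, and without a stated strand setting the reads of the 2 genes cannot be told apart. The related Mrps18a had 4.02, 7.77 and 13.8 CPM in CD25-high cells, against 7.00, 7.66 and 10.6 CPM in CD25-low cells, and Mrps18c had 17.7, 21.4 and 32.4 CPM in CD25-high cells, against 26.6, 22.9 and 21.3 CPM in CD25-low cells. Neither related gene separated the groups, with estimates of 0.02 for each.

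Mrpl37, a mitochondria-specific protein of the large subunit, had 38.5, 30.8 and 34.6 CPM in CD25-high cells, against 28.7, 22.9 and 21.5 CPM in CD25-low cells. Mrpl18, a protein of the central protuberance with a bacterial counterpart, had 86.0, 66.4 and 81.8 CPM in CD25-high cells, against 66.9, 53.9 and 51.9 CPM in CD25-low cells. Mrpl42, specific to mitochondria and part of the large subunit, had 37.9, 33.9 and 45.9 CPM in CD25-high cells, against 32.0, 19.8 and 33.1 CPM in CD25-low cells. Mrpl37 and Mrpl42 did not overlap between groups, while for Mrpl18 CD25-high library 2 lay just below CD25-low library 1. Their log2 fold changes were 0.51 ± 0.24, 0.44 ± 0.21 and 0.47 ± 0.27, with edgeR adjusted p of 0.467, 0.484 and 0.564. Without CD25-low library 2 the estimate of Mrpl42 was 0.27.

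In all, the libraries of 6 members did not overlap with CD25-high above CD25-low (Mrpl36, Mrpl37, Mrpl42, Mrps14, Mrps15 and Mrps18b), and 0 members did not overlap with CD25-high below. Among all tested genes 7.41% were separated upward and 9.54% downward, so the upward count is near the background. Mrps15, a small-subunit protein with a bacterial counterpart, had 22.3, 24.5 and 23.7 CPM in CD25-high cells, against 19.5, 13.5 and 20.6 CPM in CD25-low cells. Mrps14, of the same kind, had 31.9, 33.2 and 37.2 CPM in CD25-high cells, against 30.3, 29.8 and 31.8 CPM in CD25-low cells. The gap between the groups was under 1 CPM for Mrpl36, Mrpl42, Mrps14 and Mrps18b. For Mrps14 the estimate was small (log2 fold change 0.16 ± 0.22, edgeR adjusted p = 0.853).

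**Figure D3:**
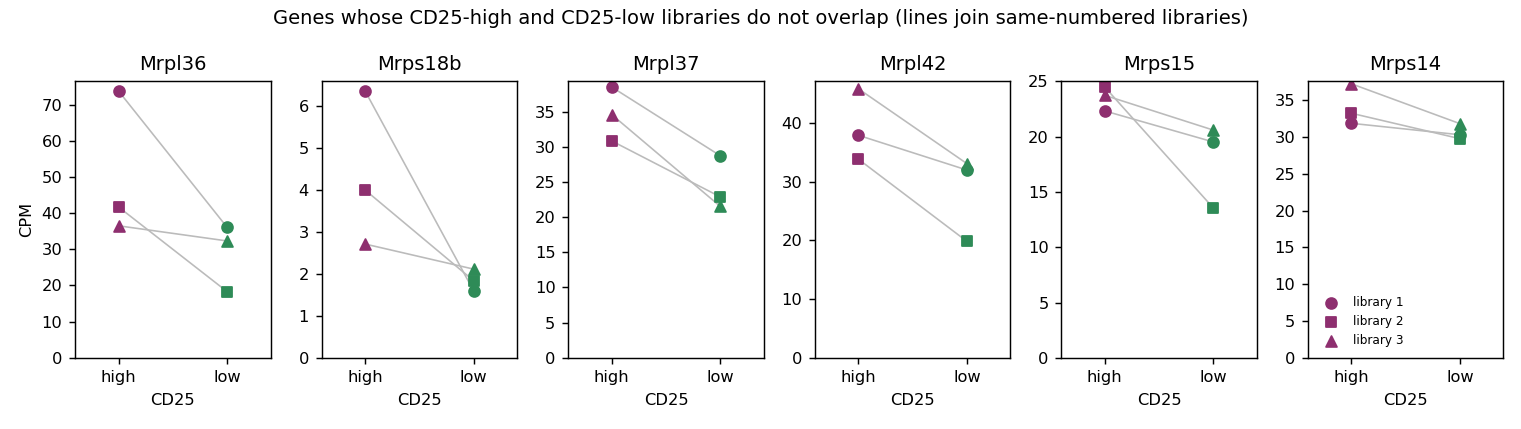
CPM (vertical axis, from 0) of the 6 members whose CD25-high (left, purple) and CD25-low (right, green) libraries did not overlap; shapes give the library number and grey lines join libraries of the same number. The lowest CD25-high library lies less than 1 CPM above the highest CD25-low library for Mrpl36, Mrpl42, Mrps14 and Mrps18b, and Mrps18b is the least abundant of the 6, at or below 6.35 CPM.

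Among negative estimates, Mrpl27 (chr11:94653767-94660089), a large-subunit protein whose bacterial counterpart reaches towards the peptidyl transferase centre, had 7.99, 13.6 and 11.3 CPM in CD25-high cells, against 22.1, 15.3 and 12.1 CPM in CD25-low cells. Mrpl52, a mitochondria-specific protein of the large subunit, had 11.6, 9.53 and 7.95 CPM in CD25-high cells, against 24.0, 8.52 and 13.2 CPM in CD25-low cells. For both genes CD25-low library 1 was the highest of the 6 and the groups overlapped. The log2 fold changes were -0.59 ± 0.34 (edgeR adjusted p = 0.574) and -0.65 ± 0.40 (edgeR adjusted p = 0.599). Without CD25-low library 1 they were -0.32 for Mrpl27 and -0.16 for Mrpl52.

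Mrps6, a small-subunit protein with a bacterial counterpart, had 20.7, 12.8 and 12.6 CPM in CD25-high cells, against 17.7, 22.9 and 23.3 CPM in CD25-low cells (log2 fold change -0.47 ± 0.30, edgeR adjusted p = 0.615). Its pattern differed from that of Mrpl27 and Mrpl52, with CD25-high libraries 2 and 3 the lowest, and without CD25-high library 1 its estimate was -0.75. Mrps6 shares 19.9% of its exonic bases with Gm49711, a protein-coding gene on the same strand that has no counts here. With Slc5a3, a myo-inositol transporter gene on the same strand, Mrps6 shares 10.4%. The log2 fold change of Slc5a3 was -0.60 (edgeR adjusted p = 0.309). The other 3 of the 6 smallest p among negative estimates were Mrpl24, Mrps9 and Mrpl41, at -0.35 ± 0.25, -0.38 ± 0.28 and -0.42 ± 0.33 (edgeR adjusted p = 0.663, 0.679 and 0.698). Without CD25-low library 1 they were -0.18, -0.19 and -0.23. Mrpl24 shares 26.3% of its exonic bases with Rrnad1 on the other strand.

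The members that build the functional centres of the ribosome showed no difference past the test either. Mrps12, the counterpart of the bacterial protein at the decoding centre, had 6.80, 8.52 and 12.2 CPM in CD25-high cells, against 11.2, 4.73 and 7.65 CPM in CD25-low cells (log2 fold change 0.22 ± 0.41). Mrpl12, the stalk protein that recruits translation factors, had 19.3, 11.98 and 15.6 CPM in CD25-high cells, against 21.8, 6.68 and 12.3 CPM in CD25-low cells (0.20 ± 0.42). Mrpl11, at the base of that stalk, had 13.2, 12.5 and 23.9 CPM in CD25-high cells, against 14.1, 11.8 and 11.8 CPM in CD25-low cells (0.39 ± 0.33). In each of these genes the libraries of the groups overlapped, and for Mrpl11 CD25-high library 3 stood above the other 5, without which its estimate was 0.04.

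Mrpl2, which lies by the peptidyl transferase centre, had 5.78, 7.72 and 6.82 CPM in CD25-high cells, against 6.13, 6.94 and 2.85 CPM in CD25-low cells (log2 fold change 0.35 ± 0.43). Mrpl4, of the wall of the exit tunnel, had 35.9, 21.2 and 26.1 CPM in CD25-high cells, against 14.0, 16.9 and 27.0 CPM in CD25-low cells (0.53 ± 0.32). Leaving out 1 library moved Mrpl2 to between 0.05 and 0.60, and Mrpl4 to between 0.30 and 0.85. Mrpl16, a core protein that joins late in assembly of the large subunit, had 55.0, 56.5 and 55.8 CPM in CD25-high cells, against 92.4, 44.2 and 44.1 CPM in CD25-low cells (-0.11 ± 0.30). The CD25-high libraries of Mrpl16 lay within 2 CPM of each other, between CD25-low library 1 and the other CD25-low libraries. For Mrps7, of the head of the small subunit, the same CD25-low library was the highest, with 36.2, 43.0 and 57.1 CPM in CD25-high cells, against 72.9, 30.5 and 46.0 CPM in CD25-low cells (-0.13 ± 0.32).

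Mrpl58, a peptidyl-tRNA hydrolase that has become part of the large subunit and frees stalled chains, had 13.8, 13.5 and 10.2 CPM in CD25-high cells, against 9.84, 19.2 and 16.7 CPM in CD25-low cells (log2 fold change -0.29 ± 0.33). Mrps30, a mitochondria-specific protein of the large subunit, had 34.7, 17.9 and 25.0 CPM in CD25-high cells, against 37.9, 17.8 and 17.3 CPM in CD25-low cells (0.09 ± 0.37). Mrps36, outside the ribosome, had 1.42, 1.33 and 1.86 CPM in CD25-high cells, against 0.930, 1.11 and 2.36 CPM in CD25-low cells (0.06 ± 0.65), and was among the least precisely measured members. The groups overlapped for all 3 genes, and edgeR adjusted p over the 13 genes of this core, which includes Mrps18a, Mrps18b and Mrps18c, lay between 0.419 and 0.994.

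The members' summed level varied more within the CD25-low group than between the groups. It was 1929, 1598 and 1787 CPM in CD25-high cells, against 2028, 1386 and 1519 CPM in CD25-low cells. CD25-low libraries thus held both the highest and the lowest sum. The median deviation of a member from its own mean over the 6 libraries was 0.09, -0.04 and 0.15 on the log2 scale in CD25-high cells, against 0.21, -0.29 and -0.12 in CD25-low cells. CD25-low library 1 was the highest library for 29 members, and CD25-low library 2 was the lowest for 29. Without CD25-low library 2 the members' median log2 fold change was -0.02 (37 positive, 39 negative), and without CD25-low library 1 it was 0.28 (57 positive, 19 negative), against 0.09 with all libraries. With the library number as a block and pair 2 left out, an alternative chosen after seeing the data, the median was 0.08 (44 positive, 32 negative).

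**Figure D4:**
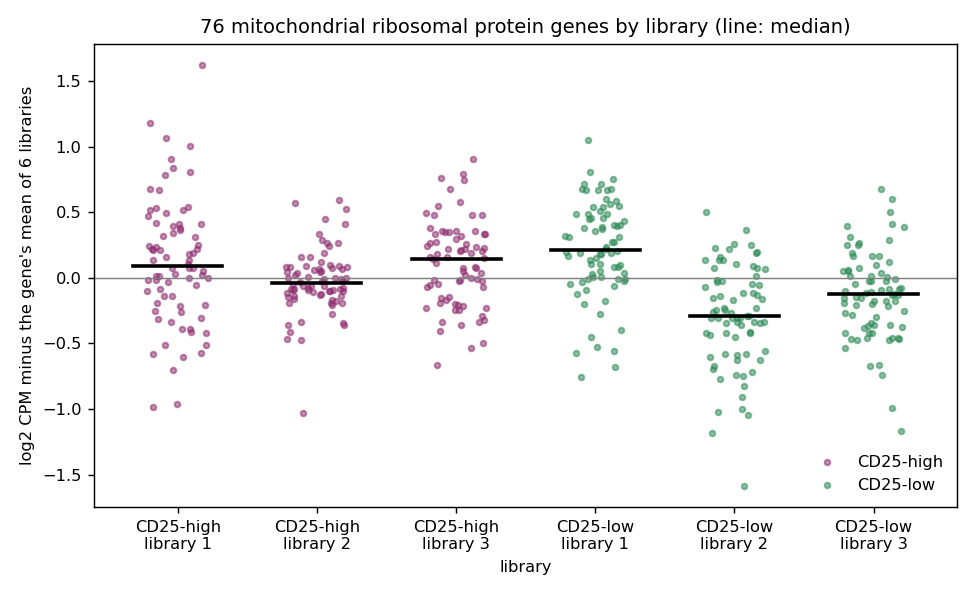
Log2 CPM of each of the 76 tested members minus its own mean over the 6 libraries (points), by library, CD25-high (purple) left of CD25-low (green), with the median as a black line. The CD25-low libraries range from a median of 0.21 in library 1 to -0.29 in library 2, and the 3 CD25-high medians, from -0.04 to 0.15, lie between them.

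Taken as pairs of the same number, the CD25-high library was above the CD25-low library for 32 of 76 members in pair 1, with a median log2 ratio of -0.08. In pairs 2 and 3 it was above for 55 of 76 members each, with medians of 0.23 and 0.28. The sign was positive in every pair for 16 members, negative in every pair for 6 and mixed for 54. Pair 1 thus differed in direction from the other pairs.

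With the library number as a block in the same edgeR fit, 1 member was called against 601 of 12987 genes (4.63%). Mrpl38 rose, with a log2 fold change of 1.57 ± 0.37 (edgeR adjusted p = 0.0286). That call was lost without pair 1 (adjusted p = 0.0782), without pair 2 (0.179) and without pair 3 (0.0549), and without pair 3 Mrpl36 was called in its place (log2 fold change 1.12, adjusted p = 0.0142). Over all alternatives run, the adjusted p lay between 0.0286 and 0.793 for Mrpl38 and between 0.0142 and 0.810 for Mrpl36. Under the block 7 members had an unadjusted p under 0.05, all with positive estimates, beside 18.1% of all tested genes in either direction and 8.68% with positive estimates. The members' share lies below that of all genes in either direction and near that of genes with positive estimates. The median SE of a member was 0.29 with the block and 0.33 without it, and the median log2 fold change was 0.15 with the block.

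Levels differed far more between members than between groups. In TPM, which scale to depth and correct for exon length, the mean over the 6 libraries of the 76 tested members ran from 3.93 for Mrpl48 to 107 for Mrpl18, a 27.4-fold range with a median of 21.9 TPM. After Mrpl48, a protein of the central protuberance, the next lowest tested members were Mrps36 at 4.18 TPM and Mrps18b at 5.49 TPM, and Mrpl23, which was not tested, was at 0.790 TPM. Mrpl42 at 96.3 TPM and Mrpl16 at 95.9 TPM followed Mrpl18 at the top, and 8 members exceeded 50 TPM. The median level was 21.9 TPM for the large subunit and 22.1 TPM for the small subunit. Across the members, log2 TPM in CD25-high and in CD25-low cells correlated with Pearson's r = 0.951, as a description over 76 genes that share libraries and lengths.

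Mrpl18 had 124 TPM in CD25-high cells and 91.0 TPM in CD25-low cells, and Mrpl42 had 112 TPM in CD25-high cells and 80.4 TPM in CD25-low cells. Mrpl16 had 93.0 TPM in CD25-high cells and 98.7 TPM in CD25-low cells, which put it last of these 3 genes in CD25-high cells and first in CD25-low cells. None of the 3 differed between the groups past the test. Mrpl48 had 3.78 TPM in CD25-high cells and 4.07 TPM in CD25-low cells, and its libraries lay between 8.23 and 10.1 CPM. Mrps36 and Mrps18b had fewer CPM than Mrpl48 in every library. The rank of Mrpl48 as lowest, and with it the range of TPM, thus depends on the exon length used, 4696 bases for Mrpl48.

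For some members the counts may include reads of another gene. Exonic bases are shared with another annotated gene by 32 members, and by at least 10% of the member's exonic bases in 17. The share is 88.0% for Mrpl53 with Gm42688 on the same strand, 69.8% for Mrps25 with the nuclear receptor gene Nr2c2 on the other strand, and 63.4% for Mrps34 with Mapk8ip3. Their levels are uncertain to that extent. Mrpl23, whose protein has a bacterial counterpart, was not tested, with 2, 0 and 35 reads in CD25-high cells, against 0, 4 and 0 reads in CD25-low cells. Its processed pseudogene Mrpl23-ps1 had 29, 26 and 34 reads in CD25-high cells, against 37, 25 and 31 reads in CD25-low cells, and reads of near-identical copies may be assigned to either, so the counts of Mrpl23 are uncertain.

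No gene was called by edgeR without the block in any of the lists of mitoribosome partners that follow. Mitoribosome proteins with other symbols (5 tested, among them Ptcd3 at 0.52 and Dap3 at -0.12, edgeR adjusted p = 0.549 and 0.884, with Ptcd3 at 0.17 without CD25-high library 1) had a median log2 fold change of 0.01, beside 0.01 over all genes. The 26 assembly factors had a median of 0.02, with the GTPase gene Noa1 at 0.58 ± 0.27 (0.34 without CD25-high library 1) and the pseudouridine synthase gene Rpusd3 at -1.12 ± 0.60 (edgeR adjusted p = 0.467 and 0.549). Among 13 translation factors the median was 0.19. Mtif3, an initiation factor of mitochondrial translation, had 48.9, 46.8 and 51.2 CPM in CD25-high cells, against 35.5, 34.2 and 36.0 CPM in CD25-low cells, and Mtrf1l, a release factor, had 19.1, 22.6 and 23.1 CPM in CD25-high cells, against 31.3, 34.2 and 28.6 CPM in CD25-low cells. Their log2 fold changes were 0.47 ± 0.20 and -0.54 ± 0.23 (edgeR adjusted p = 0.420 and 0.430). Besides these, Gfm2, which acts in ribosome recycling, was chosen after its values were seen. It had 45.9, 46.1 and 45.7 CPM in CD25-high cells, against 56.7, 60.3 and 61.5 CPM in CD25-low cells (-0.37 ± 0.19, edgeR adjusted p = 0.523). These 3 of 13 genes separated the groups, 1 upward and 2 downward, beside 7.41% and 9.54% of all tested genes.

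The list of mitochondrial tRNA synthetases held 20 tested genes and had a median log2 fold change of 0.08. It includes Gatb, Gatc and Qrsl1, which encode subunits of an amidotransferase and not synthetases. Hars2 was at -0.51 and Pars2 at -0.77 (edgeR adjusted p = 0.515 and 0.588). With 1 library left out, Pars2 lay between -1.19 and -0.48. The 12 genes of mitochondrial DNA upkeep and transcription had a median of -0.17. Mgme1, a nuclease of mitochondrial DNA, had 15.8, 12.8 and 22.8 CPM in CD25-high cells, against 10.9, 10.05 and 9.06 CPM in CD25-low cells (0.78 ± 0.31, edgeR adjusted p = 0.394). Tfam, which packages mitochondrial DNA and starts its transcription, had 59.6, 62.2 and 50.4 CPM in CD25-high cells, against 88.2, 85.4 and 66.3 CPM in CD25-low cells (-0.48 ± 0.21, edgeR adjusted p = 0.437). Each of the 2 genes separated the groups, 1 upward and 1 downward, beside the shares of all genes given above.

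The rRNAs that these proteins bind differed by less than their spread. mt-Rnr1, of the small subunit, and mt-Rnr2, of the large subunit, had log2 fold changes of -0.14 ± 0.18 and 0.00 ± 0.18 (edgeR adjusted p = 0.835 and 0.997). Of the 13 mRNAs the mitoribosome translates, only 8 had counts here. All 8 were tested and their estimates were positive, beside 50.8% of all tested genes, with a median of 0.41. Their summed level was 43564, 29859 and 25913 CPM in CD25-high cells, against 29786, 20275 and 26575 CPM in CD25-low cells. In pair 3 the sum was thus lower in CD25-high cells. The least abundant, mt-Nd3, stayed at or below 7.09 CPM. With the library number as a block 2 of the 8 mRNAs rose, beside 4.63% of all tested genes called in either direction. They were mt-Nd1 (0.69, edgeR adjusted p = 0.0270) and mt-Nd2 (0.65, edgeR adjusted p = 0.0286), both subunits of complex I. mt-Nd1 had 8627, 3982 and 3395 CPM in CD25-high cells, against 4110, 2219 and 3023 CPM in CD25-low cells. As for Mrpl38, library 1 was the highest of each group and the groups overlapped. In the fit without a block, their estimates of 0.78 and 0.73 were 0.24 and 0.18 without CD25-high library 1. Without pair 1 both block calls were lost (edgeR adjusted p = 0.205 for mt-Nd1 and 0.174 for mt-Nd2).

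**Figure D5:**
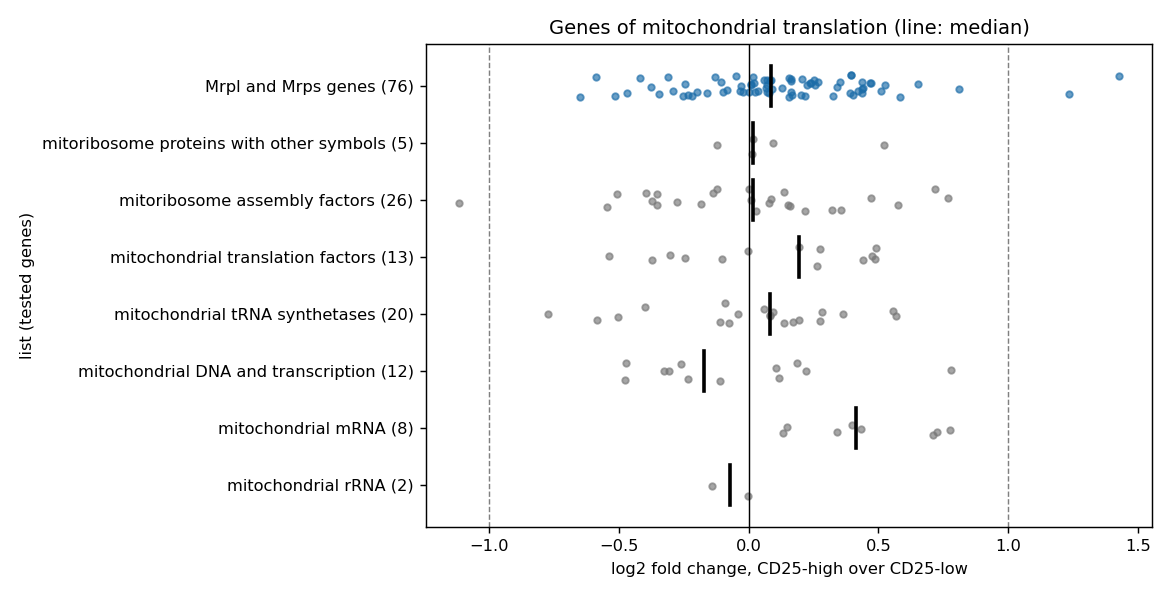
Log2 fold change, CD25-high over CD25-low (horizontal axis), of the tested members (blue, top row) and of the genes of each related list (grey), with list medians as black lines and a 2-fold change as dashed lines; numbers in brackets are tested genes. The median of the members is 0.09, and the lists run from -0.17 for mitochondrial DNA and transcription to 0.41 for the 8 mitochondrial mRNAs, all of which lie above 0.

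Cytosolic ribosomal protein genes and nuclear genes of the respiratory chain were set beside the members. The 77 cytosolic genes had a median log2 fold change of 0.17 (58 positive, 19 negative, 0 called by edgeR) and the 75 respiratory chain genes had a median of -0.09 (28 positive, 47 negative, 0 called by edgeR). The members, at 0.09, lay between these lists. Summed members over summed cytosolic ribosomal protein genes gave CPM ratios of 0.371, 0.348 and 0.307 in CD25-high cells, against 0.328, 0.362 and 0.330 in CD25-low cells. Over summed respiratory chain genes the ratios were 0.405, 0.328 and 0.328 in CD25-high cells, against 0.372, 0.349 and 0.310 in CD25-low cells. Both ratios overlapped between the groups.

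The genes outside the family whose log2 CPM followed the members' mean standardized level most closely over the 6 libraries were Lrrc40 (Pearson's r = 0.998), Iscu (0.998), Snhg5 (0.996), Rsl24d1 (0.994) and Nfatc2ip (0.993). Iscu encodes the scaffold protein of mitochondrial iron-sulfur cluster assembly. These are the closest of all tested genes by construction, and with 6 points that share library and depth they are a description only. The members themselves correlated with that mean at a median r of 0.54, with 42 of 76 above 0.5 and 12 below 0.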

How the data were processed

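Per the labels' protocols, total RNA of the sorted cells was extracted with a QIAGEN miRNeasy kit and libraries were made by NuGEN's Ovation RNA-Seq System v2. The deposited values are raw counts, whole numbers of reads per Ensembl gene, in 1 table of 6 library columns with no other sample columns. The submitters' processing notes name Novoalign and DESeq2, with no version, and 2 builds, mm10 and hg19. Which tool counted the reads, whether strand was used and how multiply mapped reads were handled is not given in the sources used here. Every row total was at least 10, and the rows of mitochondrial rRNA took 29.3% to 34.0% of counts in CD25-high libraries and 31.7% to 35.3% in CD25-low libraries.

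Identifiers were named through GENCODE M21 (GRCm38, the assembly of mm10), which matched 15169 of 15445. The main test was edgeR 4.0.16 (R 4.3.3), quasi-likelihood F test, TMM factors, filterByExpr (minimum count 10, minimum total 15), with group as the only term, and Benjamini-Hochberg adjustment over 12987 genes. A call was an adjusted p under 0.05. The SE was taken as the size of the log2 fold change divided by the root of F, and 95% intervals use the matching t quantile. CPM use TMM-adjusted library sizes, and TPM use exon lengths of the GENCODE basic set. DESeq2 1.42.0 and limma 3.58.1 (voom) were alternatives. The scripts were tested on simulated data.

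The library numbers, taken from the titles, were used as pairs in the block by a rule on the data. Over the 2000 most variable genes, deviations from the group mean correlated at 0.341, 0.187 and 0.157 for libraries of the same number, all above 0.1. For other numbers they correlated at -0.256 to 0.133, so the limit of 0.1 did not fully set matched libraries apart from unmatched ones. The labels do not say what a number stands for and name no batch. The main test therefore had group as its only term, and the block was an alternative.

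Members and lists were chosen with earlier results of these data known. Named were called members, the 6 members with the smallest p in each direction, the 3 highest and 3 lowest by TPM, a core of 13 members, the top genes of each list, Il2ra and the 5 genes most like the members. Mrps14, Mrps15, Gfm2, Wdfy1, Slc5a3 and the members with shared exons or windows were named after their values were seen. The marker lists held 8 T cell genes (Cd3d and Cd3g, log2 fold changes -0.95 and -0.82, were lower only with the block, edgeR adjusted p = 0.0134 and 0.0135), 8 myeloid genes (2 tested: Itgam 1.42, higher with the block at edgeR adjusted p = 0.00130, and Csf1r 0.66), 8 B cell genes (1 tested, Cd22, -0.97), 4 CD8 T and NK cell genes (1 tested, Cd8b1, 1.12) and 6 red cell genes (1 tested, Alas2, 0.00). None was called without the block.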

Additional observations from a re-analysis of the deposited data

How the results depend on the processing

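Over all genes, the 85 calls became 601 with the replicate block, 369 with DESeq2, 22 to 130 with 1 library left out, and 461, 486 and 536 with the block without pair 1, 2 or 3, alternatives chosen after seeing the data. The other tools, factors and filters gave 79 to 95. Members called stayed at 0 under every alternative but the replicate block (1, Mrpl38) and the block without pair 3 (1, Mrpl36). The members' median log2 fold change lay between -0.02 without CD25-low library 2 and 0.28 without CD25-low library 1, beside 0.09 with all libraries. Its size and sign thus depended on single libraries. The members' median deviation had an SD of 0.19 between libraries of a group, which is not the error of a difference between groups. Of the 76 members, 0 to 4 changed sign with another tool, scaling, filter or the block, and 3 to 17 with 1 library left out. Named genes near 0 changed sign without passing the test. Mrps18a had -0.12 with the block, -0.14 with voom, -0.20 and -0.38 with the block without pair 2 or 3, and -0.51 to 0.36 with 1 library left out. Mrps18c had -0.0233 with the block, -0.0173 with voom, -0.34 with the block without pair 3, and -0.26 to 0.19. Mrpl16 had 0.00318 with voom, 0.35 with the block without pair 1, and -0.30 to 0.34. Mrps7 had 0.40 with the block without pair 1, and -0.39 to 0.25. Mrps36 had -0.0474 with the block without pair 1, and -0.17 to 0.59. Mrps30 had -0.0567 with the block without pair 3, and -0.18 to 0.56. Mrps12 had -0.0294 with the block without pair 2, and -0.0414 to 0.57. Mrpl11 had -0.00628 with the block without pair 3. Mrpl12 ran from -0.13 to 0.72 with 1 library left out. mt-Rnr2 had 0.00604 with DESeq2, 0.00859 with RLE factors, 0.0113 with upper-quartile factors, 0.000148 with the stricter filter, 0.0787 with the block without pair 3, and -0.13 to 0.12. Alas2 had -0.00211 and -0.22 with the block without pair 2 or 3, and -0.19 to 0.25. The cause of these moves was not tested. Tested members had 17 to 2626 reads per library with a median of 356. The SE was largest, at 0.65, for Mrps36, which had 17 to 57 reads, beside a median SE of 0.33, and it was 0.60 for Mrpl38, which had 45 to 328 reads.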
